A study of Homo sapiens with 24 samples.

Results

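SUM159 ALDHneg cells were compared after 30 h under nifuroxazide (NIF) and after 30 h under the vehicle DMSO. SUM159 is a triple-negative breast cancer line with mesenchymal traits, and ALDHneg names the cells that a sort for aldehyde dehydrogenase activity (the ALDEFLUOR assay, gated against the inhibitor DEAB) placed in the negative gate, as opposed to the ALDH-bright (ALDHbr) cells enriched for cancer stem cells. The libraries were chosen by their labels: cell line SUM159, ALDHneg, and either treatment, which gave 6 of the 24 libraries of the study, 3 under NIF and 3 under DMSO. The other libraries were SUM159 ALDHbr cells and both fractions of the colorectal cancer line SW620 under the same treatments. Cells were treated in adherent culture and isolated by sorting, and the paper's methods do not state the order for the RNA samples. If the sort came afterwards, the ALDHneg gate was set on cells that had already been exposed. The methods describe 3 independent experiments, and the replicate number, shared between NIF and DMSO, was used as a pair. No agent or genetic change other than NIF was named for these cultures, the NIF concentration used for RNA was not given in the sources used here, and the single line, given by the laboratory that derived it and not authenticated according to the methods, limits these data to 1 genetic background. Gene levels were counted from stranded total RNA, and levels are given as CPM, counts scaled by the TMM library size.

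Nifuroxazide is a nitrofuran antibiotic given for diarrhoea and also known as an inhibitor of STAT3 phosphorylation. Transcripts are a readout of several switches that such a compound could meet. NRF2 is held inactive by KEAP1 until electrophiles or oxidants modify KEAP1, and it then turns on glutathione, thioredoxin, heme and NADPH genes; the aryl hydrocarbon receptor (AhR) turns on cytochrome P450 genes such as CYP1A1 when it binds a ligand; NF-kB and STAT3 drive cytokine genes that SUM159 cells are known to make in quantity.

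The 6 libraries held from 31212580 to 43127948 counts. ALDH1A1, the isoform most often behind ALDEFLUOR activity, had 10 to 28 counts in each ALDHneg library (0.300 to 0.631 CPM) and 3042 to 8331 counts in each SUM159 ALDHbr library (104 to 218 CPM), so the labelled fraction matched this marker. All 10 mesenchymal markers were expressed, summing to 8752 to 9119 CPM under NIF and 8326 to 9316 CPM under DMSO, whereas 13 of 16 epithelial markers stayed under 1 CPM in all 6 libraries and the keratins KRT8 and KRT18 were at 282 to 418 CPM. Of 10 immune and endothelial markers, 7 stayed under 1 CPM. CD68 was at 24.4 to 30.5 CPM, ITGAM at 2.30 to 10.7 CPM and CD14 at 0.387 to 1.19 CPM. ALDH1A1 was not called between the treatments in ALDHneg cells (log2 fold change -0.13 with a standard error, SE, of 0.30, adjusted p = 0.827 in the quasi-likelihood fit of edgeR used throughout). In sorted bulk samples, fewer cells of a type and less RNA per cell cannot be told apart.

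NIF moved many genes of SUM159 ALDHneg cells by small amounts and a few genes by a lot. HMOX1, which encodes the heme-degrading enzyme heme oxygenase 1, rose 2.73-fold, and CYP1A1, the classical AhR-induced cytochrome P450, fell 10.6-fold. Cytokine and protease genes fell too, the chemokine CXCL8 by 2.74-fold, the cytokine IL6 by 2.66-fold and the urokinase PLAU by 2.72-fold. Of 14953 genes tested, 1970 were called at an adjusted p under 0.05 (13.2% of those tested), 912 higher under NIF (6.10%) and 1058 lower (7.08%). The genes called higher had a median log2 fold change of 0.24 and those called lower of -0.34, and only 22 rose and 110 fell by a log2 fold change of 1 or more. Nearly all called genes, 1941, had the same sign in all 3 pairs, and 1461 had NIF and DMSO libraries that did not overlap, against 2949 (19.7%) of all genes tested. The count rested on the pairing: without the replicate block 493 genes were called, all of them among the 1970. Leaving out NIF replicate 1 gave 989 calls, NIF replicate 3 gave 1176, DMSO replicate 1 gave 1205 and DMSO replicate 3 gave 1247. When the fit was corrected for the span and GC content of genes, an alternative added after seeing the data, 2490 genes were called and 56.4% of them were higher, against 46.3% here.

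**Figure D1:**
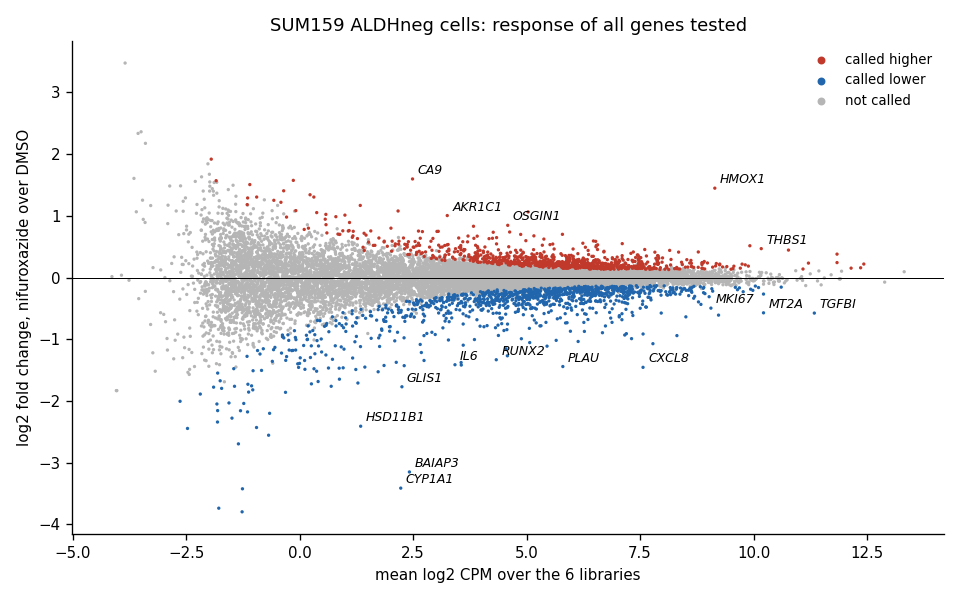
Log2 fold change (NIF over DMSO) of each of the 14953 genes tested in SUM159 ALDHneg cells against its mean log2 CPM over the 6 libraries, with called genes in red (higher) and blue (lower) and the others in grey. The falls reach farther than the rises: CYP1A1 and BAIAP3 lie below -3, while CA9 and HMOX1 lie highest among labelled genes.

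The promoters of CYP1A1 (the lowest fold change among the called genes named for their size), OSGIN1 and AKR1C1 (2 of the NRF2 targets that rose most) are shown because AhR and NRF2 are known to bind short DNA elements near their target genes. Each is the stretch of 250 bases before the RefSeq start, 5′ to 3′ on the gene's strand, from GRCh38.p14: chr15:74725529-74725778 on the minus strand for CYP1A1, chr16:83952990-83953239 on the plus strand for OSGIN1 and chr10:4963165-4963414 on the plus strand for AKR1C1. Capitals mark the AhR core GCGTG on either strand.
CYP1A1: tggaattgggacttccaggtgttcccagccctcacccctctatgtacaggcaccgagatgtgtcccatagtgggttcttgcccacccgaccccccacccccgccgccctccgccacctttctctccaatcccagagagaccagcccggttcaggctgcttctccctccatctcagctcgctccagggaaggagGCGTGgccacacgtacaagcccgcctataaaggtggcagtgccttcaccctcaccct
OSGIN1: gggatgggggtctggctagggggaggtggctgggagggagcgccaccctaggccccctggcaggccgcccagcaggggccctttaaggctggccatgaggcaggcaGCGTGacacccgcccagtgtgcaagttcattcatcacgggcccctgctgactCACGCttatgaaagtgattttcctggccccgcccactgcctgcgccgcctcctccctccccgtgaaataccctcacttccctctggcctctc
AKR1C1: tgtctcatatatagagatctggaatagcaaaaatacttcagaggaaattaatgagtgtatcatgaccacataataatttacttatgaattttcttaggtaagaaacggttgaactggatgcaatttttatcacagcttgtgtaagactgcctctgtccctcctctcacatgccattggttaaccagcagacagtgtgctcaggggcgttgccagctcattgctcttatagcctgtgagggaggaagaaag
CYP1A1 held 1 match, with its first base 57 bases before the start, and OSGIN1 held 2, at 144 and 92 bases before it. These letters are common: 44.7% of the 11535 tested genes with a promoter in the table held GCGTG on either strand in this window, as did 44% of genes called higher and 43.1% of genes called lower. The antioxidant response element TGACNNNGC, searched on both strands, was in none of the 3 windows shown and not in that of NQO1 (chr16:69726561-69726810, minus strand), while 12% of tested genes and 5 of the 18 NRF2 targets called higher with a promoter in the table held it. A match or its absence in 250 bases is a description and does not show binding.

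NRF2 targets were the list with the largest share of genes called higher. Of 30 targets tested, 24 were called higher and 1 lower, where 6.10% and 7.08% of all genes were, and their median log2 fold change was 0.32 against 0.0037 over all genes tested. Lists were chosen with earlier results of these data known, so list shares, here and below, are descriptions and not tests. HMOX1 stood at 1009, 1012 and 798 CPM under NIF in experiments 1, 2 and 3, and at 358, 436 and 260 CPM under DMSO. Every NIF library was above every DMSO library, by a log2 fold change of 1.45 (SE 0.07, adjusted p = 3.13e-11). AKR1C1, an aldo-keto reductase that reduces reactive carbonyls and steroids, was at 14.2, 11.8 and 14.4 CPM under NIF and 7.76, 5.96 and 6.44 CPM under DMSO. Its groups did not overlap either, and the log2 fold change was 1.00 (SE 0.11, adjusted p = 2.78e-06), with the caution that AKR1C1, AKR1C2 (0.63) and AKR1C3 (0.47) are near-identical and may share reads. OSGIN1, an oxidative stress-induced growth inhibitor, rose from between 14.6 and 21.0 CPM to between 30.4 and 34.7 CPM (log2 fold change 0.85, adjusted p = 5.33e-06). NQO1, a quinone reductase, was at 350, 395 and 385 CPM under NIF and 246, 326 and 281 CPM under DMSO, a log2 fold change of 0.41 (SE 0.06, adjusted p = 3.19e-05).

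The other NRF2 targets called higher rose by less than HMOX1 and spread over the pathway's branches. Genes of glutathione synthesis and cystine import rose, with log2 fold changes of 0.41 for GCLM, 0.32 for GCLC and 0.44 for the cystine carrier SLC7A11. In the thioredoxin branch TXNRD1 rose by 0.51, SRXN1 by 0.41 and TXN by 0.15 on the log2 scale. Genes of NADPH supply did the same: PGD rose by 0.36 and ME1 by 0.19. Both ferritin chains, which store the iron that heme oxygenase sets free, were called higher, FTL by 0.44 and FTH1 by 0.23. ABCC3, an efflux pump for conjugated organic anions, was the target called lower. It fell from between 97.3 and 119 CPM to between 87.1 and 97.0 CPM (log2 fold change -0.28, adjusted p = 0.00343). A further 5 of the 30 targets were not called, and 2 of the 30 had a log2 fold change below 0. KEAP1, the repressor of NRF2, rose (0.23), and the NRF2 gene itself, NFE2L2, fell (-0.37, adjusted p = 2.71e-05). NMRAL2P, a pseudogene outside the list and among the 10 genes with the highest fold change, went from between 3.02 and 3.16 CPM to between 5.26 and 7.96 CPM (log2 fold change 1.08). Without the replicate block 11 of the 24 targets were called higher, and leaving out any library left 19 to 23.

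AhR targets and regulators went the other way. Of 9 tested, 6 were called lower (66.7%) and 1, NQO1, higher (11.1%), beside 7.08% and 6.10% of all genes tested. The list median was a log2 fold change of -0.37. CYP1A1 was at 2.19, 1.07 and 1.14 CPM under NIF and at 20.4, 13.3 and 12.6 CPM under DMSO. The highest NIF library was far below the lowest DMSO library, and the log2 fold change was -3.41 (SE 0.19, adjusted p = 1.73e-10). CYP1B1, another AhR-induced P450, was low throughout, at 0.0324 to 0.210 CPM under NIF and 0.387 to 0.789 CPM under DMSO (log2 fold change -2.34, SE 0.54, adjusted p = 0.00556). TIPARP, an AhR-induced ADP-ribosyltransferase that limits the receptor, fell by 1.04 on the log2 scale, and the receptor gene AHR itself by 0.23. The cytokine gene IL1B (-1.36) and NFE2L2 were the other members called lower. Without the block 4 genes of the list were called lower, and with at least 10 counts in every library the median was -0.23.

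**Figure D2:**
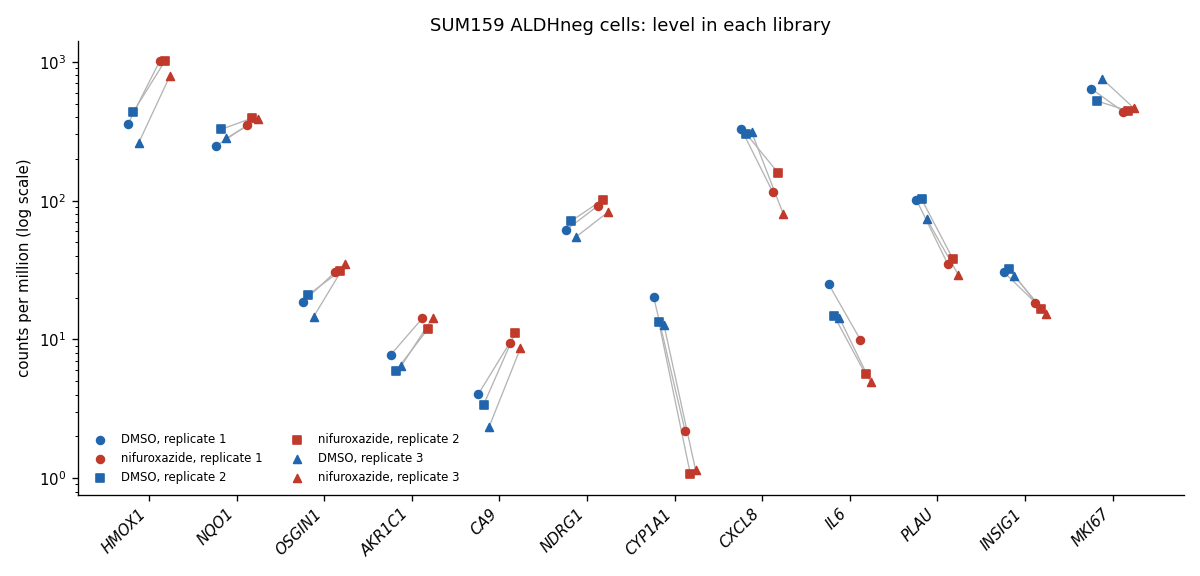
CPM (log scale) of 12 genes in each SUM159 ALDHneg library, DMSO in blue and NIF in red, with the marker shape giving the replicate number and a grey line joining each pair. Each line runs upward from HMOX1 to NDRG1 and downward from CYP1A1 to MKI67, and CYP1A1 has the steepest fall.

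Inflammatory cytokine and NF-kB target genes formed the list that fell farthest. Of 27 tested, 22 were called lower (81.5%) and 1 higher (3.7%), beside 7.08% and 6.10% of all genes tested. The median log2 fold change was -0.93. CXCL8, the neutrophil-attracting chemokine interleukin 8, was at 116, 159 and 80.4 CPM under NIF and 330, 302 and 312 CPM under DMSO. All NIF libraries lay below all DMSO libraries (log2 fold change -1.46, SE 0.11, adjusted p = 5.38e-09). IL6, the cytokine that signals through gp130 to STAT3, was at 9.98, 5.61 and 4.90 CPM under NIF and 24.97, 14.8 and 14.4 CPM under DMSO. The pairs fell in parallel, replicate 1 being the highest in both groups, and the log2 fold change was -1.41 (SE 0.11, adjusted p = 2.32e-08). CXCL1, CXCL2 and CXCL3, chemokines of close sequence that may share reads, fell by 1.45, 1.11 and 1.05 on the log2 scale. IL24 and CSF2, a cytokine of the IL-10 family and the growth factor GM-CSF, had the lowest fold changes of the list, -2.69 and -1.73, at levels of 1.16 CPM or less in all libraries.

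Negative feedback genes of the NF-kB pathway were lower along with its cytokines. TNFAIP3, the A20 deubiquitinase, had a log2 fold change of -0.93, NFKBIA, the inhibitor IkB alpha, of -0.68 and BIRC3, an inhibitor of apoptosis, of -0.99. Subunits of NF-kB fell by less, with -0.29 for NFKB1, -0.40 for NFKB2 and -0.45 for RELB. The adhesion molecule ICAM1 (-0.49) and the mitochondrial superoxide dismutase SOD2 (-0.64) were also called lower. TNFAIP6, a hyaluronan-binding protein, was the member that rose, from between 2.00 and 2.58 CPM to between 3.16 and 4.57 CPM (log2 fold change 0.76, adjusted p = 0.0112). Without the replicate block 10 genes of the list were called lower, and with any library left out 19 to 22 were.

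The study asks how NIF bears on STAT3 and on the Fanconi anemia pathway of DNA crosslink repair, so genes of both were followed in these cells. STAT3 was at 133, 127 and 133 CPM under NIF and 150, 133 and 152 CPM under DMSO. The highest NIF library, at 133.0 CPM, all but met the lowest DMSO library, at 133.1 CPM, and the log2 fold change was -0.15 (SE 0.05, adjusted p = 0.0375). This call was lost in 10 of 16 alternatives, with log2 fold changes of -0.18 to -0.11. Of 40 genes of the STAT3 pathway, 3 were called higher (7.5%) and 12 lower (30%), with a median log2 fold change of -0.08. Of 28 STAT3 targets 3 were called higher (10.7%) and 10 lower (35.7%), with a median of -0.14. Among all genes tested 6.10% were called higher and 7.08% lower. The feedback inhibitor SOCS3, a direct STAT3 target, rose (0.22, adjusted p = 0.0274), as did FOS (0.74), while the NF-kB cofactor BCL3 (-0.65), the acute phase gene SAA1 (-0.80) and the collagenase MMP1 (-2.56) fell. Among receptors and ligands, the gp130 gene IL6ST (-0.24), PDGFRA (-0.75), LIF (-0.58) and CSF1 (-0.62) were called lower, and the phosphatase PTPN1 (0.28) and the cytokine CLCF1 (0.26) higher. The lists share IL6 and several other genes with the inflammatory list. Without the block 4 pathway genes and 3 targets were called lower, and 6 targets were without DMSO replicate 1. Leaving out DMSO replicate 3 moved the pathway median to -0.0033, leaving out NIF replicate 3 moved it to -0.039, and 1 pathway gene was called higher when either of these, or NIF replicate 1, was left out.

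Few Fanconi anemia and homologous recombination genes were called in number, and those called were higher. Of 31 Fanconi anemia genes, 2 were called higher, which is 6.45% beside 6.10% of all genes (median log2 fold change 0.02). FANCD2 was at 90.7, 97.6 and 95.7 CPM under NIF and 91.0, 91.7 and 89.0 CPM under DMSO, and FANCI at 110, 115 and 117 CPM and 111, 114 and 113 CPM. The groups overlapped for both, with adjusted p-values of 0.405 for FANCD2 and 0.917 for FANCI. FAN1, the nuclease of crosslink repair, was the gene of the list that rose most (0.21, adjusted p = 0.0150), beside the ubiquitin ligase RFWD3 (0.14, adjusted p = 0.0371), whose call was lost in 11 of 16 alternatives. FANCA (-0.11, adjusted p = 0.144), BRCA1 (-0.01, adjusted p = 0.941), BRCA2 (0.025, adjusted p = 0.861), ERCC1 (0.00081, adjusted p = 0.995) and H2AX (0.08, adjusted p = 0.364) were not called. Of 30 homologous recombination genes 4 were called higher, which is 13.3% beside 6.10% of all genes. The exonuclease EXO1 (0.33) and the translocase RAD54L (0.20) led them.

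Cell cycle genes divided by phase. Of 54 G2/M genes, 28 were called lower (51.9%, median log2 fold change -0.17), beside 7.08% of all genes tested. Of 43 S phase genes 3 were called higher (6.98%, beside 6.10% of all genes) and 1 lower (2.33%), with a median of 0.0097. MKI67, the proliferation marker Ki-67, was at 439, 444 and 467 CPM under NIF and 640, 524 and 759 CPM under DMSO. The NIF libraries were below and closer together than the DMSO libraries (log2 fold change -0.50, SE 0.06, adjusted p = 6.30e-06). DLGAP5, a spindle assembly factor, was at 67.3, 68.2 and 71.8 CPM under NIF and 86.1, 92.0 and 96.0 CPM under DMSO (-0.40, adjusted p = 1.25e-05). CENPF (-0.36), NUSAP1 (-0.35) and CDC20 (-0.25), genes of kinetochore, spindle and anaphase, were called lower too. RRM2, the ribonucleotide reductase subunit of S phase, rose (0.24, adjusted p = 0.00110), MCM7, a subunit of the replicative helicase, fell (-0.21, adjusted p = 0.00389), and CCND1, cyclin D1, had a log2 fold change of 0.15 (adjusted p = 0.0415), a call lost in 8 of 16 alternatives. The number of G2/M genes called lower was 5 without the block, 16 without NIF replicate 1, 16 without NIF replicate 3 and 17 without DMSO replicate 3.

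Hypoxia and glycolysis genes rose as a list. Of 34 tested, 20 were called higher (58.8%) and 1 lower (2.94%), beside 6.10% and 7.08% of all genes tested. The median log2 fold change was 0.18. CA9, carbonic anhydrase 9, was the gene with the highest fold change among those named for size, at 9.48, 11.1 and 8.63 CPM under NIF and 4.03, 3.38 and 2.32 CPM under DMSO. Its groups were well apart (log2 fold change 1.60, SE 0.18, adjusted p = 2.37e-06). NDRG1 stood at 91.2, 102 and 82.8 CPM under NIF and 61.4, 71.3 and 55.1 CPM under DMSO (0.56, adjusted p = 2.63e-07). BNIP3, a mitophagy receptor, rose by 0.53 on the log2 scale. Enzymes of glycolysis moved by less, from 0.14 for LDHA to 0.33 for ENO2, with GAPDH at 0.22 and HK2 at 0.30. EGLN3, a prolyl hydroxylase that marks HIF for degradation, was the member called lower (-0.40, adjusted p = 0.0130). Without the block 7 genes of the list were called higher, without DMSO replicate 1 11 were, and without NIF replicate 1 13 were.

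Cholesterol synthesis genes fell together by small amounts. Of 29 tested, 13 were called lower (44.8%, beside 7.08% of all genes tested), with a median log2 fold change of -0.16. INSIG1, the sterol-responsive anchor of SREBP processing, was at 18.4, 16.6 and 15.4 CPM under NIF and 30.5, 32.3 and 28.6 CPM under DMSO. The groups did not overlap (-0.86, SE 0.07, adjusted p = 4.53e-08). SQLE, the squalene epoxidase, fell by 0.47 and the regulator SREBF2 by 0.39 on the log2 scale. Without the block 6 genes were called lower, and without NIF replicate 1 8 were.

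Among stress responses, 12 of 40 ATF4 targets were called higher (30%) and 2 lower (5%), with a median log2 fold change of 0.11. Of all genes tested 6.10% were called higher and 7.08% lower. CHAC1, which degrades glutathione, had the highest value of that list, at 19.9, 17.3 and 20.2 CPM under NIF and 13.9, 11.3 and 7.30 CPM under DMSO (0.83, adjusted p = 0.00152). The serine synthesis genes PSAT1 (0.33) and PHGDH (0.29) rose, and STC2 (-0.56) and DDIT4 (-0.23) fell. The list's median was 0.045, 0.057 and 0.24 in pairs 1, 2 and 3 and 0.055 without DMSO replicate 3, and 2 targets were called higher without the block. Genes of the unfolded protein response of the endoplasmic reticulum were called lower in 6 of 27 (22.2%), among them the chaperone HSPA5 (-0.23). Of 26 heat shock chaperones 3 were called higher (11.5%), HSPA6 leading at 0.67. Its groups overlapped, at 12.5 to 36.9 CPM under NIF and 8.75 to 17.35 CPM under DMSO, and its call was lost in 5 of 16 alternatives. Of 5 metallothioneins tested 3 were called, all of them lower (60%). MT2A was at 985, 1021 and 930 CPM under NIF and 1492, 1552 and 1324 CPM under DMSO (-0.57, adjusted p = 1.55e-07). MT1X fell by 0.74, and members of this family may share reads.

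Immediate early genes were called in both directions, 12 of 35 higher (34.3%) and 7 lower (20%), or 4 and 1 without the replicate block. Over all genes tested the shares were 6.10% higher and 7.08% lower. FOS was at 44.1, 28.4 and 25.4 CPM under NIF and 21.6, 19.5 and 16.8 CPM under DMSO (0.74, adjusted p = 0.00268), EGR1 rose by 0.59 and KLF2 by 0.73, while SPRY2, a feedback inhibitor of receptor tyrosine kinases, fell by 0.51 and PHLDA1 by 0.42 on the log2 scale. EGR3 rose by 0.89 with overlapping groups (1.56 to 4.87 CPM under NIF, 1.06 to 2.19 CPM under DMSO). Of 39 extracellular matrix genes 3 were called higher (7.69%, near the share of all genes) and 13 lower (33.3%), with a median log2 fold change of -0.14. PLAU, the urokinase that activates plasminogen, was at 34.8, 37.8 and 29.2 CPM under NIF and 102, 103 and 73.4 CPM under DMSO. The groups did not overlap (log2 fold change -1.44, SE 0.07, adjusted p = 3.13e-11). The basement membrane collagens COL4A1 (0.50) and COL4A2 (0.35) rose, and fibrillin 1, FBN1 (-0.77), and the laminin chain LAMB3 (-0.59) fell. Without the block 4 matrix genes were called lower, and without NIF replicate 1 8 were. Of 30 TGF-beta and YAP targets 7 were called higher (23.3%) and 5 lower (16.7%). THBS1 was at 1422, 1246 and 1390 CPM under NIF and 1002, 1066 and 883 CPM under DMSO (0.47, adjusted p = 0.000454). TGFBI was at 2241, 2372 and 1806 CPM under NIF and 3083, 3621 and 2853 CPM under DMSO (-0.58, adjusted p = 1.26e-07).

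**Figure D3:**
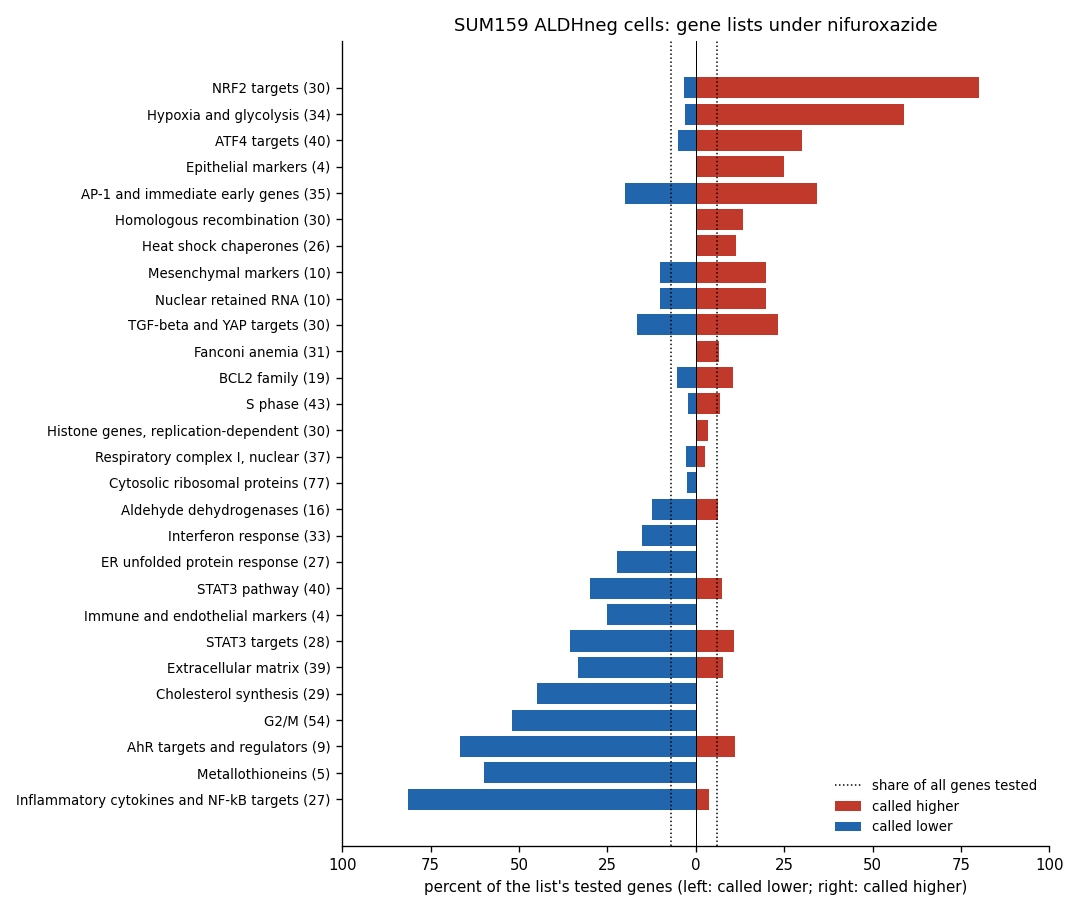
Percent of the tested genes of each list shown (number in brackets) called higher (red, to the right) or lower (blue, to the left) under NIF in SUM159 ALDHneg cells, with dotted lines at the 6.10% and 7.08% of all genes tested. NRF2 targets reach farthest to the right and inflammatory and NF-kB genes farthest to the left, while the Fanconi anemia and S phase lists stay near the lines. Lists were chosen with earlier results of these data known.

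Other lists held few calls in number, with shares above and below the 6.10% called higher and 7.08% called lower of all genes tested. Of 16 aldehyde dehydrogenases, ALDH3A2 rose (0.22), ALDH3B1 fell (27.3 to 30.5 CPM under DMSO, 18.0 to 20.2 CPM under NIF, log2 fold change -0.59, adjusted p = 4.95e-06) and ALDH1A3 was called lower at a level under 0.3 CPM (-2.00, SE 0.64, adjusted p = 0.0415), a call lost in 8 of the 13 alternatives that gave it an adjusted p. In the BCL2 family the BH3-only gene BMF fell from between 5.47 and 6.32 CPM to between 1.65 and 2.56 CPM (-1.43, adjusted p = 6.84e-06), and another BH3-only gene, PMAIP1 (0.58), and BNIP3 rose. Interferon response genes were called lower in 5 of 33 (15.2%), IRF1 among them (-0.45, adjusted p = 0.000954). Of 77 cytosolic ribosomal protein genes 2 were called lower (2.6%), RPL3 (-0.16) among them. The 37 nuclear genes of respiratory complex I had 1 call in each direction, NDUFAB1 (0.17) and NDUFA7 (-0.28), and of 30 histone genes H2BC21 was called higher (0.70). Of 10 nuclear retained RNAs MALAT1 (0.18) and SNHG1 (0.18) were called higher (20%) and NEAT1 (-0.31) lower (10%). Among 10 mesenchymal markers VIM (0.15) and CDH2 (0.22) rose (20%) and SNAI2 (-0.24) fell (10%). KRT18 was the epithelial marker called (0.29) and ITGAM the immune marker (-0.79, with overlapping groups at 2.30 to 10.7 CPM). The part of these markers in the other results was not tested.

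Several of the genes that moved farthest belong to no list. BAIAP3, a vesicle exocytosis regulator, was at 1.60, 1.82 and 1.92 CPM under NIF and 18.4, 13.1 and 15.5 CPM under DMSO (log2 fold change -3.15, SE 0.21, adjusted p = 2.11e-09). HSD11B1, the enzyme that regenerates cortisol, fell from between 3.77 and 8.97 CPM to between 0.811 and 1.33 CPM (-2.41, adjusted p = 3.72e-06). No library of either gene crossed into the other group. The zinc finger gene GLIS1 (-1.77), the coactivator gene MN1 (-1.71), the calcium channel subunit CACNA2D3 (-1.53) and the pseudogene GGT8P (-1.49), whose family members may share reads, completed the largest falls. BDNF, a neurotrophin, was at 10.3, 9.86 and 12.0 CPM under NIF and 6.91, 6.48 and 5.72 CPM under DMSO (0.75, adjusted p = 0.000944). PANX2, a channel-forming pannexin, and SPTB, the beta spectrin of erythrocytes, rose by 0.75 each on the log2 scale.

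The response of ALDHneg cells was set beside that of SUM159 ALDHbr cells, which share the treatments and, by number, the experiments. In ALDHbr cells 1994 genes were called (13.3%), 863 higher (5.77%) and 1131 lower (7.56%), and 1183 were called in both fractions in the same direction, 60.1% of the ALDHneg calls and 59.3% of the ALDHbr calls. The sign of the ALDHbr fold change was that of ALDHneg cells for 1923 of the 1970 genes (97.6%). Across the 14953 genes the log2 fold changes had a Pearson correlation of 0.54, a description, since the fractions share experiments and 1 fit. The difference of the responses itself passed for 6 genes (0.0401% of those tested, edgeR quasi-likelihood interaction test), with 686 at an unadjusted p under 0.05. No list member was among the 6. Without the replicate block edgeR called 0 genes, with 238 at an unadjusted p under 0.05, while DESeq2 with the block gave 6 and the lowest and highest counts with 1 library left out were 2 and 7.

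BAIAP3 fell by more in ALDHneg cells. In ALDHbr cells it was low already under DMSO, at 0.861 to 2.47 CPM, and 0.821 to 1.30 CPM under NIF (log2 fold change -0.74, adjusted p = 0.0940), so that the responses differed by -2.41 (95% interval -3.18 to -1.65, adjusted p = 0.00619). AREG, the EGF receptor ligand amphiregulin, was called in opposite directions. It was at 12.9, 10.1 and 21.0 CPM under NIF and 11.4, 8.15 and 8.06 CPM under DMSO in ALDHneg cells, with overlapping groups and replicate 3 highest under NIF (0.64, adjusted p = 0.00943), and at 10.7 to 21.6 CPM against 20.0 to 35.8 CPM in ALDHbr cells (-0.90, adjusted p = 0.000199). The difference was 1.54 (95% interval 1.10 to 1.99, adjusted p = 0.00336). STC1, the glycoprotein hormone stanniocalcin 1, fell in ALDHbr cells (-1.13, adjusted p = 4.25e-09) and was at 28.2 to 32.9 CPM under NIF against 29.0 to 38.2 CPM under DMSO in ALDHneg cells (-0.16, adjusted p = 0.146), a difference of 0.96 (95% interval 0.74 to 1.19, adjusted p = 0.000214). RUNX2, a transcription factor of bone formation, EREG, the EGF receptor ligand epiregulin, and FAM167A fell in both fractions and by less in ALDHneg cells. Their ALDHneg fold changes were -1.33, -0.73 and -1.02, and the differences were 0.81, 0.80 and 0.66 (adjusted p = 0.00619, 0.0320 and 0.0320).

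**Figure D4:**
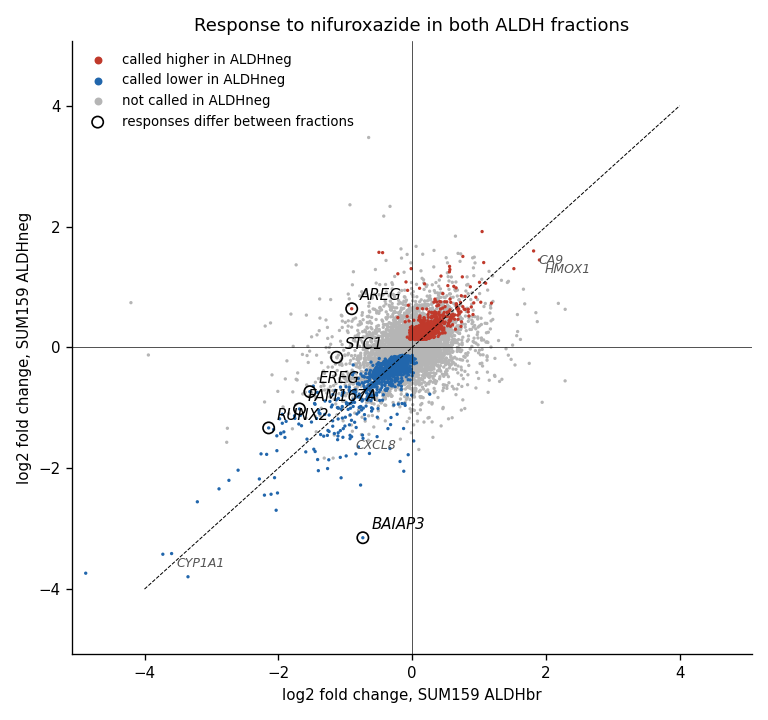
Log2 fold change (NIF over DMSO) of each of the 14953 genes in SUM159 ALDHneg cells against that in SUM159 ALDHbr cells, coloured by the ALDHneg call, with the dashed line of equal response and rings on the 6 genes whose responses differed. BAIAP3 lies far below the line, and AREG, STC1, RUNX2, EREG and FAM167A lie above it.

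The response also differed from that of ALDHneg cells of SW620. In SW620 6286 of 13953 genes were called (45.1%). Of the 1715 genes called in SUM159 ALDHneg cells and tested in SW620, 626 were called there in the same direction and 356 in the opposite one, and across 12780 genes the log2 fold changes had a Pearson correlation of 0.11. The difference between lines was called for 4364 of 16271 genes (26.8%), 2068 higher in SUM159 (12.7%) and 2296 lower (14.1%). Every NRF2 target whose difference was called, 24 of 30, had the lower response in SUM159, where the list's median was 0.32 against 1.03 in SW620. The ATF4 list had 1 called difference higher in SUM159 and 35 lower, with medians of 0.11 (40 genes) and 1.27 (37 genes). Cholesterol synthesis genes (25 higher, 1 lower) and G2/M genes (38 higher) had called differences toward a smaller fall in SUM159, with medians of -0.16 against -0.68 and -0.17 against -0.60. Inflammatory and NF-kB genes, with a median of -0.93 over 27 genes in SUM159, had a median of -0.0026 over the 20 tested in SW620. IL6 and IL24, which fell in SUM159, were not tested in SW620, so the medians cover unlike sets of genes. In SW620 5 of the 20 were called higher and 5 lower, beside 22.3% and 22.7% of all genes tested there. Differences between the lines were called for 11 genes of the list, all lower in SUM159.

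PLAU was among the 3 genes of lowest p whose response was lower in SUM159, with log2 fold changes of -1.44 in SUM159 and 2.10 in SW620 and a difference of -3.55 (adjusted p = 1.08e-15). CD55, an inhibitor of complement, fell in SUM159 (-0.26) and rose in SW620 (2.40), a difference of -2.66. IL6R, the interleukin 6 receptor, was at 36.4 to 39.4 CPM under NIF and 33.0 to 38.0 CPM under DMSO in SUM159 and was not called (0.10, adjusted p = 0.266), while it rose by 3.74 in SW620, a difference of -3.64. On the other side PHLDB2, TLR4 and GATA2 fell in SW620 (-3.03, -2.05 and -1.22) and had log2 fold changes of 0.13, 0.24 and 0.08 in SUM159, of which only that of TLR4, the lipopolysaccharide receptor, was called (adjusted p = 0.00445). Their differences were 3.15, 2.28 and 1.29. The labels do not tie the experiments of the lines together, so the line and the experiment cannot be told apart.

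**Figure D5:**
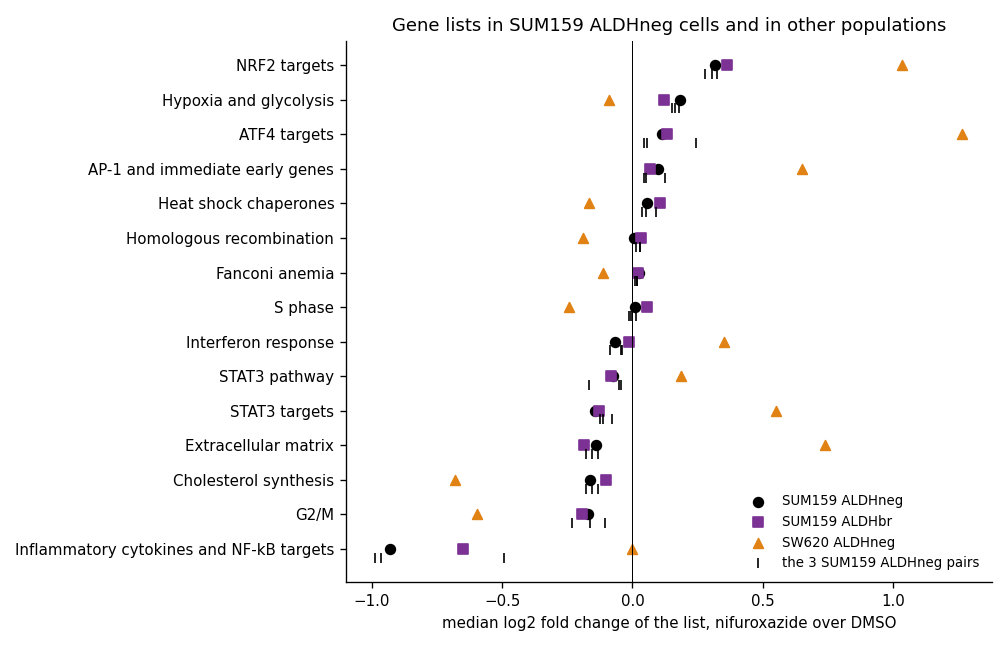
Median log2 fold change (NIF over DMSO) of 15 gene lists in SUM159 ALDHneg cells (black circles), SUM159 ALDHbr cells (purple squares) and SW620 ALDHneg cells (orange triangles), with ticks for the medians in each of the 3 SUM159 ALDHneg pairs. The SUM159 fractions lie close together for most lists, and inflammatory genes, at -0.93 in ALDHneg and -0.65 in ALDHbr cells, are far below SW620 at about 0. SW620 medians cover only list genes tested there, 20 of the 27 for inflammatory genes.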

How the data were processed

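RNA of 24 libraries was measured by RNA-seq (Illumina Stranded Total RNA Prep), in 8 groups of 3. Per the labels the submitters' processing notes name FastQC, STAR and GRCh38; the counting tool, annotation and strand setting are not given in the sources used here, so overlapping and antisense genes cannot be told apart. The authors deposited 1 table of raw counts per gene (28307 genes, no normalization), and the whole numbers were used as deposited.

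Genes were filtered by group (filterByExpr, 14953 tested), scaled by TMM and fitted with edgeR 4.0.16 (quasi-likelihood F test, R 4.3.3) over the 12 SUM159 libraries, with group and replicate number as terms (6 residual degrees of freedom) and Benjamini-Hochberg adjustment at 0.05. CPM used TMM library sizes, and mean log2 CPM a prior count of 2. The line difference was fitted over all 24 libraries, with the replicate block for SUM159, and SW620 was fitted on its own without it. The methods call the replicates independent experiments, and the use of the same number as a pair was set beforehand. Same-numbered SUM159 libraries deviated together in 18 of 18 pairs of libraries (correlations 0.125 to 0.451). These pairs reuse the same 12 libraries, and libraries of different number were not set beside them. Replicate counts differed beyond sampling noise (chi-square per gene 9.08 to 24.5). If experiments shared stocks, p-values measure only the spread between these libraries.

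Genes were named by a rule: the 10 highest and 10 lowest log2 fold changes among called genes with mean log2 CPM of at least 1, no overlap between groups and 1 sign in all 3 pairs (1359 eligible), up to 4 called members of each of 30 lists, the genes the study measures, and the called differences of lowest p. Many further list members, and EREG and FAM167A, were named outside this rule after their values were seen, so they are examples from their lists. Members and lists were chosen with earlier results of these data known; S phase and G2/M lists came from Seurat 5.3.0, and 919 list entries matched by Entrez identifier and 26 did not. The 26 mitochondrially encoded genes were not analysed here. Some withheld genes, and 1 list tied to them, are not reported here. Promoters came from RefSeq (GRCh38.p14). On counts simulated for the ALDHneg comparison (14705 genes, of which 200 were given a log2 change of 1), the fit recovered 200 with 8 false calls, and 192 with 14 false calls for the difference from ALDHbr. The 200 were not drawn from the genes of lowest expression. Smaller changes, like most of those called here, were not simulated. Alternatives were DESeq2 1.42.0, other scalings, filters, designs and each library left out. The total counts of 31212580 to 43127948 limit precision for genes under about 1 CPM.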

Additional observations from a re-analysis of the deposited data

Results flagged for a closer look

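The response to NIF differed between SUM159 ALDHneg and ALDHbr cells, by the test of that difference itself, for 6 genes. The difference, ALDHneg minus ALDHbr on the log2 scale, was 0.96 for STC1, 1.54 for AREG, 0.81 for RUNX2, -2.41 for BAIAP3, 0.80 for EREG and 0.66 for FAM167A. The calls differed in how they held over 20 alternatives: AREG was lost in 1, STC1 in 2, BAIAP3 in 2, RUNX2 in 4, FAM167A in 11 and EREG in 12, and each difference kept its sign in all 20. Among the 20, 1 asks for a log2 difference of at least 1, which STC1, RUNX2, EREG and FAM167A could not meet.

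Between SUM159 and SW620 ALDHneg cells, the 6 genes of lowest p by the test of the difference, 3 in each direction, had differences (SUM159 minus SW620, log2) of -3.55 for PLAU, -3.64 for IL6R, -2.66 for CD55, 3.15 for PHLDB2, 2.28 for TLR4 and 1.29 for GATA2. These 6 calls held in all 19 alternatives run.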

How the results depend on the processing

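Without the replicate block that pairs the libraries, 493 genes were called in SUM159 ALDHneg cells (164 higher, 329 lower) and 0 differed from ALDHbr cells, 238 at an unadjusted p under 0.05. Requiring a log2 fold change of at least 1 left 132 (22 higher, 110 lower), 2 and, against SW620, 840. A fit of all 24 libraries called 1306 (546 higher), offsets for span and GC content (added after seeing the data) called 1404 higher and 1086 lower, and no filter on low counts gave 39 differences from ALDHbr. With 1 library left out the counts ran from 989 to 1897 in all, 406 to 915 higher and 583 to 1029 lower, lowest without NIF replicate 1, and from 2 to 7 for the difference from ALDHbr (2 without ALDHbr NIF replicate 2, 3 without its replicate 1). The other alternatives, DESeq2 among them, kept each count within 1.5 times, and the cause of these changes was not tested. The median of each list printed in sentences on NRF2, AhR, inflammatory, hypoxia, ATF4, cholesterol, G2/M, matrix, immediate early, STAT3 and metallothionein genes kept its sign in every alternative run. Their sizes did not all hold: the STAT3 pathway median went from -0.076 to -0.0033 and the ATF4 median from 0.11 to 0.055 without DMSO replicate 3, the immediate early median from 0.097 to 0.049 without it, and the AhR median from -0.37 to -0.23 with at least 10 counts in every library. Beside the calls named in the report as often lost, CLCF1, DDIT4, ITGAM and SNAI2 were each lost in 9 of 16 alternatives, 1 of which asks for a log2 fold change of 1. Signs reversed only for uncalled genes. ERCC1 was -0.0042 without the block, -0.0027 with library-size scaling, -0.0013 with the 6 ALDHneg libraries alone and -0.065 to 0.049 with 1 library left out, lowest without DMSO replicate 3 and also negative (-0.062) without NIF replicate 3. BRCA1 was 0.0068 with the offsets and ran from -0.048 to 0.037 (highest without NIF replicate 3), BRCA2 from -0.019 to 0.079 (below 0 without NIF or DMSO replicate 2), ALDH1A1 from -0.56 to 0.17, FANCI from -0.017 to 0.030 and H2AX from -0.0044 to 0.13, these 3 changing sign without NIF replicate 3.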
